A study of Mus musculus with 5 samples.

Results

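Transcripts of 10 mouse genes of the interleukin-1 family and its inflammasome were followed in cells of the atherosclerotic aortic arch: the ligands Il1a, Il1b and Il18, the receptor antagonist Il1rn, the sensor Nlrp3 and the protease Casp1, and the receptor chains Il1r1, Il1r2, Il1rap and Il1rl1. They were chosen by name, and each has a column in both deposited molecule tables, which hold 26189 gene columns in all. The study compared sorted arch leukocytes of wild-type (C57BL/6J) and Saa3-deficient (C57BL/6N-Saa3tm1.1(KOMP)Vlcg/MbpMmucd) female mice, described as littermates. Both genotypes received the same injection at 12 weeks of age and then ate a Western diet for 18 weeks. Live CD45+ cells of the digested arch were captured in a single BD Rhapsody library, with an antibody tag for each of 2 pools. Sample tag 01 marked the pool labelled wild-type and sample tag 02 the pool labelled Saa3-/-, as the names of the deposited tables give it. The number of mice in a pool is not given in the sources used here, and 4 macrophage culture samples of the series are not analysed here. With 1 pool per genotype there was no replicate, so differences between pools have no test, and every interval below covers counting error only.

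The tables held 889 cells of the pool labelled wild-type and 854 of the pool labelled Saa3-/-, with 7410729 and 5297952 molecules. Cells with over 25% of their molecules from mitochondrial genes were left out (56 and 31), which left 833 and 823 cells with medians of 6415 and 4698 molecules per cell. No cell index was shared by the pools. Saa3, the deleted gene, went against the label: its level was 148 CPM (counts per 1000000 molecules) in the pool labelled wild-type and 242 CPM in the pool labelled Saa3-/-, where a single cell held 799 of its 1268 molecules and another 325. In macrophage-gated cells Saa3 was 410 and 30.3 CPM in the same order. Each result below that compares the pools rests on these labels, and no second pool of either label exists to repeat it. Cells were gated by the mean z-score of fixed marker lists, none of which holds an interleukin-1 family member, and 118 and 158 cells passed no gate. Of the 1656 kept cells, 233 lay within 0.1 of a gate limit. Although the sort was for CD45, fibroblast-gated (81 and 65) and smooth muscle-gated (100 and 66) cells were present.

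Interleukin-1 alpha and interleukin-1 beta signal through the receptor chain encoded by Il1r1, which needs the accessory chain encoded by Il1rap. Il1rn encodes a secreted antagonist that occupies the receptor without signalling, and Il1r2 encodes a decoy receptor that binds the ligand and lacks a signalling domain. Il1rl1 encodes ST2, the receptor for interleukin-33, which shares the accessory chain. Interleukin-1 beta and interleukin-18 are made as inactive precursors, which caspase-1, the product of Casp1, cleaves once a sensor such as NLRP3 has assembled an inflammasome; in plaque macrophages, cholesterol crystals are a known trigger. The tables hold transcripts, and so carry no measure of cleavage or release.

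The members lie in a few places of the genome. In GRCm38 coordinates of the GENCODE annotation, Il1a (129299610 to 129309972, minus strand), Il1b (129364570 to 129371139, minus strand) and Il1rn (24336853 to 24351494, plus strand) are on chromosome 2. Il1r2 (40074079 to 40125231), Il1r1 (40225080 to 40317257) and Il1rl1 (40429570 to 40465415) follow each other on the plus strand of chromosome 1. Il18 (50554827 to 50581840) and Casp1 (5298517 to 5307265) are on chromosome 9, Nlrp3 (59541568 to 59566956) on chromosome 11 and Il1rap (26581704 to 26730117) on chromosome 16, all on the plus strand. Other annotated genes overlap 6 of the 10, and 5 of these have an overlapping gene on the opposite strand (Il1a, Il1b, Il18, Il1r2 and Il1rap). Whether the counting used strand is not given in the sources used here, so molecules of these genes and of their partners cannot be told apart.

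RefSeq promoter entries (GRCm38.p6) matched all 10 members, with 15 entries in total since 4 members have more than 1 start. The 250 bases before each start were searched on both strands for 5 letter patterns bound by factors of myeloid or lymphoid cells. The NF-kB consensus was in 3.90% of the windows of this length over all 32851 promoter entries, and in 2 of the 15 of the members, the first start of Nlrp3 and the second of Il1r1. The letters GAGGAA, read by the myeloid factor PU.1, were in 23.3% of all windows and in 3 of those of the members. The pattern of C/EBP factors, searched as TTGCNNAA, was in 9.56% of all windows and in 2 of the members' windows. For AP-1 the search used TGANTCA, which 6.75% of all windows and 2 of the members' windows held. GATA factors were represented by AGATAA, which 9.99% of all windows and 3 of the members' windows held. No pattern's matches overlapped those of another in these 15 windows. The 4 windows below belong to genes whose levels were high in different cells of the arch: Il1b in neutrophil-gated cells, Nlrp3 in neutrophil- and macrophage-gated cells, Il1rl1 in type 2 innate lymphoid- and mast-gated cells and Il1r1 in gamma-delta T-gated cells and fibroblast-gated cells. Capitals mark pattern matches, each window is written 5′ to 3′ on the strand of its gene, and the tables do not show which start a molecule came from.
Il1b, chr2:129371140-129371389, minus strand, no match: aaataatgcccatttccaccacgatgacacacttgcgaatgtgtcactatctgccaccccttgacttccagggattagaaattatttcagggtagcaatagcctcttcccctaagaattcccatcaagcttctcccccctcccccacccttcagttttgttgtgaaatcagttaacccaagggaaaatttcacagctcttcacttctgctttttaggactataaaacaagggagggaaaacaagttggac
Nlrp3, second start, chr11:59542436-59542685, plus strand, PU.1 pattern at 3 places: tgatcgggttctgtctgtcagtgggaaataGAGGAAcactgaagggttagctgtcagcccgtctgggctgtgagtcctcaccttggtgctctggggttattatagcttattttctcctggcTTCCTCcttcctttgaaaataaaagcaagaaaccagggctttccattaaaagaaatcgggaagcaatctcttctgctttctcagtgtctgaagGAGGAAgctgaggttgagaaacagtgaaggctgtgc
Il1rl1, first start, chr1:40429320-40429569, plus strand, GATA and C/EBP patterns: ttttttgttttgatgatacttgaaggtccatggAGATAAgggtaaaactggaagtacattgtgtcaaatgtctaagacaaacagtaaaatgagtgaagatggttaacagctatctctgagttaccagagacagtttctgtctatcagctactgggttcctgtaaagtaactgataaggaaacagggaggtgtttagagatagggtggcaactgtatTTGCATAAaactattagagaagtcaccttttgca
Il1r1, first start, chr1:40224830-40225079, plus strand, C/EBP pattern: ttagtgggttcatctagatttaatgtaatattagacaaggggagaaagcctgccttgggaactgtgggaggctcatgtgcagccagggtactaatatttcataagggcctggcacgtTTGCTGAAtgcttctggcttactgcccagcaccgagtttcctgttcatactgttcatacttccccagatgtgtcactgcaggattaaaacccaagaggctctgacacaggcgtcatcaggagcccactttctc
In the Nlrp3 window the matches began 220, 129 and 36 bases before the start. The Il1rl1 window held the GATA letters 217 bases and the C/EBP letters 34 bases before its start, and the second Il1rl1 start had a GATA match too. A match is a run of letters and not a measured site, and the Il1b window lacks only these 5 patterns within these 250 bases.

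Il1b, the gene of interleukin-1 beta, had its highest level in neutrophil-gated cells. All 9 neutrophil-gated cells of the pool labelled wild-type and all 16 of the pool labelled Saa3-/- held it, at 3073 CPM (95% interval 2429 to 3835) and 3196 CPM (2769.7 to 3670.1). The neutrophil gate holds fewer than 20 cells in each pool and is described because its values stood out once seen. Its marker genes (S100a8, S100a9, Retnlg and others) had a median of 456 molecules per 10000 in these cells. Dendritic-gated cells followed with 469 CPM (422 to 521) in the pool labelled wild-type and 283 CPM (235 to 338) in the pool labelled Saa3-/-. Monocyte-gated cells held 317 and 211 CPM, and macrophage-gated cells 159 CPM (143 to 177) and 163 CPM (139 to 189). In both pools the intervals of neutrophil-, dendritic- and macrophage-gated cells did not overlap, whereas those of monocyte-gated cells overlapped the macrophage interval in the pool labelled Saa3-/-. In that pool, however, a single conventional dendritic type 1-gated cell held 53 of the 122 Il1b molecules of dendritic-gated cells. The dendritic level above the macrophage level there rests on this cell. Cell types that do not make interleukin-1 beta in quantity set the background: Il1b was 15.6 and 7.09 CPM in fibroblast-gated, 12.1 and 6.22 CPM in smooth muscle-gated and 19.6 and 20.6 CPM in B-gated cells.

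Most macrophage-gated cells held no Il1b molecule. With every cell thinned to 2000 molecules, 24 of 173 macrophage-gated cells of the pool labelled wild-type (13.9%) and 23 of 124 of the pool labelled Saa3-/- (18.5%) held it, against 35.0% and 26.6% at their own depth. The thinned share was 2.50% (2 of 80) and 0 of 62 in fibroblast-gated cells, whose median depths of 9947 and 7631 molecules were close to the 9928 and 6836 of macrophage-gated cells. The share in macrophages was therefore above this background in both pools. The 5 highest macrophage-gated cells held 115 of 344 Il1b molecules in the pool labelled wild-type and 87 of 172 in the pool labelled Saa3-/-. The level of the type thus rested on a minority of cells.

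The share of all Il1b molecules that a type held depends on how many of its cells were captured as well as on its molecules per cell. In the pool labelled wild-type, dendritic-gated cells held 33.7% and macrophage-gated cells 33.0% of all Il1b molecules, while the 9 neutrophil-gated cells (1.08% of cells) held 7.48%. In the pool labelled Saa3-/-, the 16 neutrophil-gated cells (1.94% of cells) held 25.8%, macrophage-gated cells 22.1% and dendritic-gated cells 15.6%. Cells that passed no gate held 11.4% and 28.7%. Counted per cell, neutrophil-gated cells held a mean of 8.67 and 12.6 Il1b molecules against 1.94 and 1.39 in macrophage-gated cells, although their median depth was only 2733 and 3084.5 molecules.

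Il1a, the gene of interleukin-1 alpha, was sparse, with 49 and 43 molecules in the whole pools. Macrophage-gated cells held 31 of the 49 and 25 of the 43, at 14.3 CPM (9.74 to 20.4) and 23.7 CPM (15.3 to 34.9), from 11 and 10 cells. A single macrophage-gated cell of the pool labelled wild-type held 15 molecules. Neutrophil-gated cells, the leading type for Il1b, held none, which allows up to 118 and 47.7 CPM at 3 molecules. These limits lie above the macrophage levels of Il1a in both pools. Whether neutrophil-gated cells held less Il1a than macrophage-gated cells therefore cannot be told at this depth.

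Il18, the gene of interleukin-18, was spread thinly over mononuclear phagocytes. Among the types with at least 20 cells its level was highest in monocyte-gated cells, at 69.3 CPM (41.7 to 108) and 50.9 CPM (20.5 to 105). Conventional dendritic type 1-gated cells held 42.4 and 45.8 CPM and macrophage-gated cells 20.8 and 18.9 CPM. The monocyte interval lay above the macrophage interval in the pool labelled wild-type and overlapped it in the pool labelled Saa3-/-. No cell of either pool held more than 5 molecules, and neutrophil-gated cells held none.

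**Figure D1:**
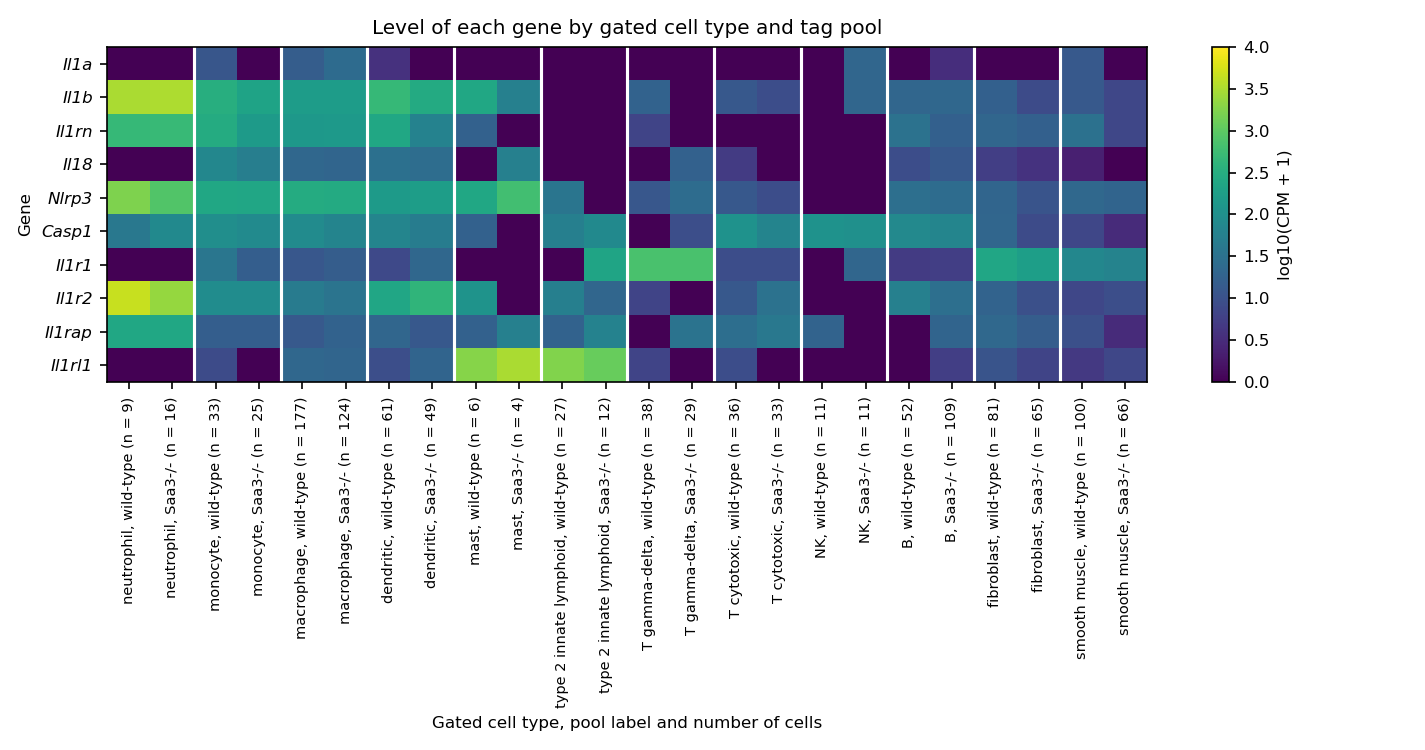
Level of each of the 10 genes (colour: log10 of CPM + 1) in the gated cell types of the 2 pools, 1 column per type and pool. Among the types drawn, neutrophil-gated cells lead Il1b, Il1rn, Nlrp3, Il1r2 and Il1rap, with dendritic-gated cells drawn as a single type, and type 2 innate lymphoid- and mast-gated cells hold Il1rl1.

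Il1rn, the gene of the receptor antagonist, was found in the same broad set of myeloid cells as Il1b but in another balance. Neutrophil-gated cells held 473 CPM (244 to 826) and 493 CPM (335 to 699.7), monocyte-gated cells 292 and 153 CPM and macrophage-gated cells 136 CPM (121 to 152) and 143 CPM (121 to 168). Within the macrophage gate, cells with the lipid-laden markers (Trem2, Gpnmb, Spp1 and others) held 183 CPM (156 to 214) and 204 CPM (169.8 to 243). Cells with the resident-type markers (Lyve1, Folr2, Cd163 and others) held 88.2 CPM (70.9 to 108) and 37.0 CPM (19.1 to 64.6). The intervals of the 2 kinds of macrophage did not overlap in either pool, but few cells held many of the molecules. The 5 highest lipid-laden cells held 65 of 160 and 64 of 126. In resident-type cells the 5 highest held 51 of 90, and 4 cells held all 12. Among thinned cells, Il1rn was in 22.9% (13.7% to 34.4%) and 22.0% (12.3% to 34.7%) of lipid-laden cells. The resident-type shares were 13.9% (7.16% to 23.5%) and 6.52% (1.37% to 17.9%), and the intervals of these shares overlapped in both pools. The highest level in the pool labelled wild-type, 1109 CPM, was in mature dendritic-gated cells (Ccr7, Fscn1, Ccl22), a group of 12 cells singled out after its values were seen, where a single cell held 92 of 130 molecules. The 4 mature dendritic-gated cells of the pool labelled Saa3-/- held none.

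The number of Il1b molecules per Il1rn molecule is read here between cell types, not as the relative amount of the transcripts, since genes differ in length and capture. Neutrophil-gated cells held 6.50 (95% interval 3.52 to 13.1) in the pool labelled wild-type, from 78 and 12 molecules, and 6.48 (4.43 to 9.80) in the pool labelled Saa3-/-, from 201 and 31. Macrophage-gated cells held 1.17 (0.998 to 1.37) and 1.14 (0.910 to 1.43), so the neutrophil interval lay above the macrophage interval in both pools. Resident-type macrophage-gated cells held 2.03 (1.57 to 2.65) and 2.92 (1.48 to 6.17), against 0.700 (0.545 to 0.897) and 0.849 (0.650 to 1.108) in lipid-laden ones, and these intervals did not overlap in either pool. Without the 5 cells highest in each gene the lipid-laden values were 0.505 and 0.413. With each cell weighing the same, the lipid-laden value of the pool labelled Saa3-/- was instead 1.26. The resident-type value of that pool rests on 35 Il1b and 12 Il1rn molecules, the latter from 4 cells. Conventional dendritic type 1-gated cells, which carry Xcr1 and Clec9a, held 9.25 in the pool labelled wild-type (148 and 16 molecules) and 35.5 in the pool labelled Saa3-/- (71 and 2 molecules), and 53 of those 71 came from a single cell. Mature dendritic-gated cells of the pool labelled wild-type lay at the other end with 0.592 (0.441 to 0.791).

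**Figure D2:**
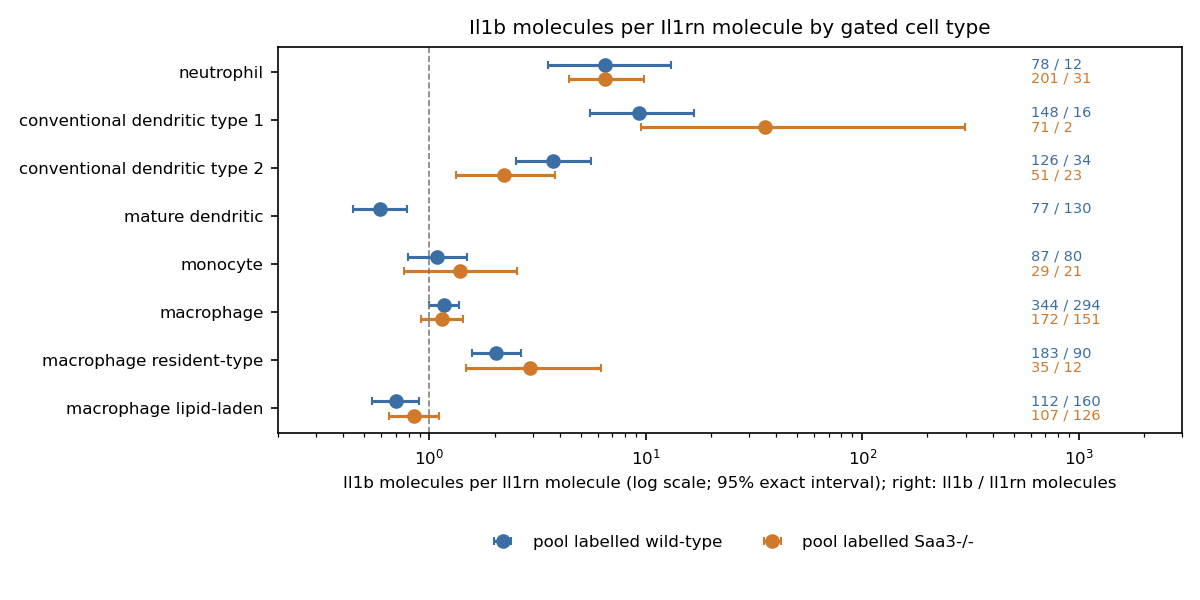
Il1b molecules per Il1rn molecule (log axis) in each gated type, with points for the 2 pools and bars for the exact 95% interval of the pair of counts. Neutrophil-gated cells sit near 6.50 in both pools. The points of lipid-laden macrophage-gated cells lie below 1, with the bar of the pool labelled Saa3-/- reaching past 1.

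Nlrp3, the sensor of the inflammasome, was highest in neutrophil-gated cells, followed by mononuclear phagocytes. Neutrophil-gated cells held 1655 CPM (1193 to 2237) in the pool labelled wild-type and 827 CPM (618 to 1084) in the pool labelled Saa3-/-. These intervals did not overlap, in a gate too small to enter the comparison of pools given later. Macrophage-gated cells held 289 CPM (267 to 313) and 274 CPM (243 to 307), and conventional dendritic type 2-gated cells 273 and 254 CPM. Monocyte-gated cells, at 237 and 233 CPM, had intervals that overlapped those of macrophage-gated cells in both pools. The 6 and 4 mast-gated cells, described after their values were seen, held 243 CPM (136 to 400.1) and 604 CPM (302 to 1082) from 15 and 11 molecules, intervals that overlapped those of macrophage-gated cells in the pool labelled wild-type and of neutrophil-gated cells in the other. Stromal and T-gated cells were lower, with 18.9 and 9.92 CPM in fibroblast-gated and 18.6 and 8.81 CPM in T-gated cells. At 2000 molecules per cell, 35.3% and 33.1% of macrophage-gated cells held Nlrp3 (61 of 173 and 41 of 124), against 3.75% and 3.23% of fibroblast-gated cells.

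Casp1, the gene of caspase-1, was present in myeloid gates and in some lymphoid ones. Natural killer-gated cells held 107 CPM (39.3 to 233) and 99.5 CPM (32.3 to 232), cytotoxic T-gated cells 109 and 63.4 CPM and monocyte-gated cells 94.8 and 80.0 CPM. Macrophage-gated cells held 84.2 CPM (72.4 to 97.3) and 62.5 CPM (48.3 to 79.5), B-gated cells 74.4 and 64.0 CPM and dendritic-gated cells 65.3 and 46.3 CPM. In each pool the intervals of these types overlapped the macrophage interval, so their order is not set by these counts. T-gated cells as a whole were lower, at 43.3 CPM (30.2 to 60.2) and 21.4 CPM (12.5 to 34.3), with intervals below those of macrophage-gated cells in both pools. Among them, naive T-gated cells held 1 molecule in each pool, thymocyte-like ones 1 and 2, and gamma-delta T-gated cells 0 and 1. Smooth muscle-gated cells held 6.05 and 2.07 CPM. Neutrophil-gated cells, which led Il1b and Nlrp3, held only 1 and 5 Casp1 molecules, with intervals from 0.998 to 219.5 CPM and from 25.8 to 186 CPM that include the macrophage values.

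Whether the ligand and the inflammasome genes were seen in the same macrophages was read after thinning to 2000 molecules per cell. Among macrophage-gated cells with Il1b, 10 of 24 in the pool labelled wild-type (41.7%, exact 95% interval 22.1% to 63.4%) and 12 of 23 in the pool labelled Saa3-/- (52.2%, 30.6% to 73.2%) also held Nlrp3, against 34.2% and 28.7% of cells without Il1b. Il1rn was in 29.2% and 30.4% of the Il1b-positive cells against 14.1% and 12.9% of the others. All of these intervals overlapped. Casp1 was in 0 of 24 and 0 of 23 Il1b-positive cells, which allows shares up to 14.2% and 14.8% at 95% confidence, against 20.1% (14.0% to 27.5%) and 5.94% (2.21% to 12.5%) of cells without Il1b. At full depth, a comparison added after the data were seen, Casp1 was in 38 of 62 Il1b-positive cells (61.3%) against 53 of 115 others (46.1%) in the pool labelled wild-type, and in 9 of 33 (27.3%) against 36 of 91 (39.6%) in the pool labelled Saa3-/-. The order thus turned in the former pool and not in the latter, and the intervals overlapped in both.

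At full depth the summed levels gave the clearer difference. Nlrp3 was 355 CPM (318 to 395) in macrophage-gated cells with Il1b and 237 CPM (210.4 to 266) in those without it in the pool labelled wild-type. In the pool labelled Saa3-/- it was 528 CPM (442 to 626) and 194 CPM (165 to 227). Il1rn was 181 against 101 CPM and 203 against 124 CPM in the same comparison, again with intervals that did not overlap in the pool labelled wild-type, and overlapped by a narrow margin in the pool labelled Saa3-/-. Casp1 was 90.4 against 79.3 CPM and 47.7 against 67.1 CPM, with overlapping intervals in both pools. Cells with Il1b were deeper, at medians of 14307 against 8007 molecules in the pool labelled wild-type and 7329 against 6780 in the other, and the part of depth in these differences was not tested. Neutrophil markers had a median of 0 molecules in thinned macrophage-gated cells with and without Il1b in both pools. Their means were 0.25 with Il1b against 0.195 without it in the pool labelled wild-type, and 0.348 against 0.198 in the other. The 14 listed interleukin-1-responsive genes had medians of 7.5 against 5 and 9 against 5 molecules, and the 12 genes of dissociation stress 8.5 against 7 and 9 against 7. Means were 11.5 against 6.28 and 10.1 against 7.89 for the responsive genes. For the stress genes they were closer, at 9.67 against 9.36 and 11.8 against 11.6.

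**Figure D3:**
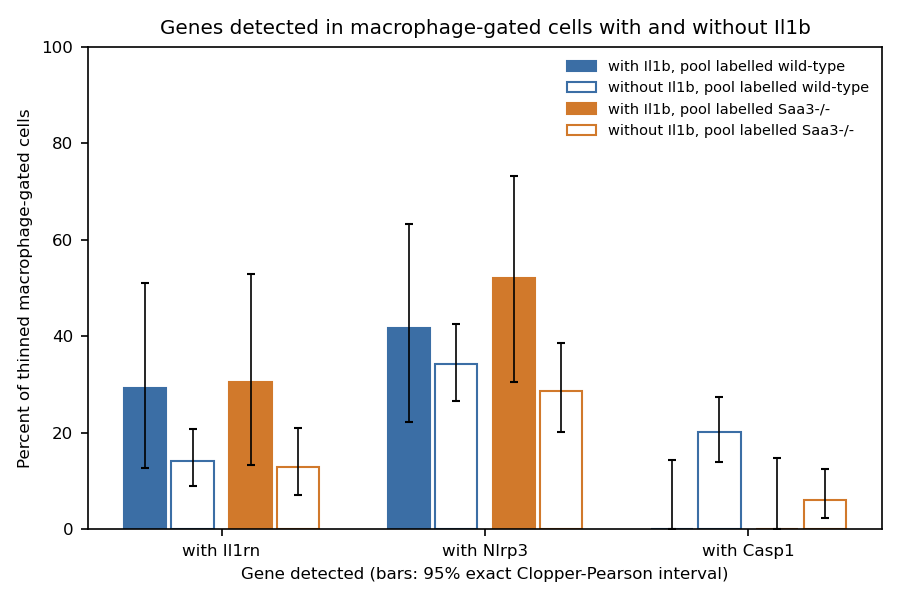
Share of thinned macrophage-gated cells (percent, exact 95% intervals) that held Il1rn, Nlrp3 or Casp1, split by whether the cell held Il1b, in each pool. Nlrp3 reaches 41.7% and 52.2% in cells with Il1b, and the wide bars overlap those of cells without it.

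Among the receptors, Il1r1 was highest in a lymphoid and a stromal gate, and low in the gates that led Il1b. Gamma-delta T-gated cells (Trdc, Cd163l1, Blk and others) held 717 CPM (598 to 853) in the pool labelled wild-type and 702 CPM (562 to 867) in the pool labelled Saa3-/-, from 36 of 38 and 23 of 29 cells. Fibroblast-gated cells held 236 CPM (205 to 269.8) and 174 CPM (145 to 208) and smooth muscle-gated cells 69.0 and 60.2 CPM. These 3 groups had intervals that did not overlap in either pool. Macrophage-gated cells held 11.1 and 14.2 CPM, and neutrophil-gated cells none, which allows up to 118 and 47.7 CPM at 3 molecules. In the fibroblast gate the molecules were concentrated, with 108 of 212 and 69 of 123 in the 5 highest cells, whereas in gamma-delta T-gated cells the 5 highest held 39 of 128 and 39 of 86. Type 2 innate lymphoid-gated cells held 0 molecules in 27 cells and 11 molecules in 2 of 12 cells.

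Among the gated types with at least 20 cells across both pools, Il1r2, the decoy receptor, was highest in neutrophil-gated cells. Dendritic-gated cells came next in both pools. Neutrophil-gated cells held 4689 CPM (3884 to 5611) in the pool labelled wild-type and 2289.9 CPM (1931 to 2696) in the pool labelled Saa3-/-, from 8 of 9 and all 16 cells. Here too the intervals of the pools did not overlap. Conventional dendritic type 2-gated cells, which carry Cd209a and Clec10a, held 411 CPM (338 to 495) and 625 CPM (529 to 733), against 124 and 138 CPM in type 1. Monocyte-gated cells held 87.6 and 87.2 CPM and macrophage-gated cells 44.4 and 33.1 CPM. The type 2 intervals lay above those of type 1 in both pools. Regulatory T-gated cells (Foxp3, Ikzf2) are a group of 10 and 8 cells singled out after its values were seen. In the pool labelled wild-type they held 28 molecules in 5 cells, or 581 CPM. That level was above the 411 CPM of conventional dendritic type 2-gated cells, with overlapping intervals. In the pool labelled Saa3-/- they held 0, which allows up to 84.0 CPM at 3 molecules.

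Il1rap, the accessory chain, was low nearly everywhere. Neutrophil-gated cells held 236 CPM (86.8 to 515) and 239 CPM (134 to 393), from only 6 and 15 molecules. T-gated cells held 16.1 and 30.2 CPM, fibroblast-gated cells 21.1 and 14.2 CPM and macrophage-gated cells 12.0 and 17.0 CPM, with intervals that overlapped between these types within each pool. The whole pools held 112 and 97 molecules, so that finer ordering was not detectable at this depth.

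Il1rl1, the interleukin-33 receptor, was found in few cells, with 93 and 55 cells holding it in the whole pools. Type 2 innate lymphoid-gated cells held 1727 CPM (1496 to 1985) from 25 of 27 cells in the pool labelled wild-type and 1154 CPM (879 to 1489) from 8 of 12 cells in the pool labelled Saa3-/-. The 6 and 4 mast-gated cells, a group described after its values were seen, held 1876 CPM (1550.2 to 2250.2) and 3132 CPM (2372 to 4058). In the pool labelled wild-type these gates held 199 and 116 of 418 molecules, and in the other 59 and 57 of 191. Macrophage-gated cells, far more numerous, held 45 and 20 molecules, or 20.8 and 18.9 CPM. The ligand of this receptor, Il33, was 390 and 238 CPM in fibroblast-gated cells.

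Ranked over the 10 gated types with at least 20 cells across both pools, 9 of the 10 members had the same leading type in both (7 to 10 over the alternatives). Neutrophil-gated cells led 5 of them, Il1b, Il1rn, Nlrp3, Il1r2 and Il1rap. The exception was Il1r1, led by fibroblast-gated cells in the pool labelled wild-type and by the 11 molecules of type 2 innate lymphoid-gated cells in the other, with T-gated cells ranked as a single type. Some of the 9 shared leads are not set by the counts. Natural killer-gated cells led Casp1 on 6 and 5 molecules, with intervals overlapping those of monocyte-gated cells. Il1a in the pool labelled wild-type was 14.3 CPM in macrophage-gated and 12.1 CPM in smooth muscle-gated cells, also with overlapping intervals.

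**Figure D4:**
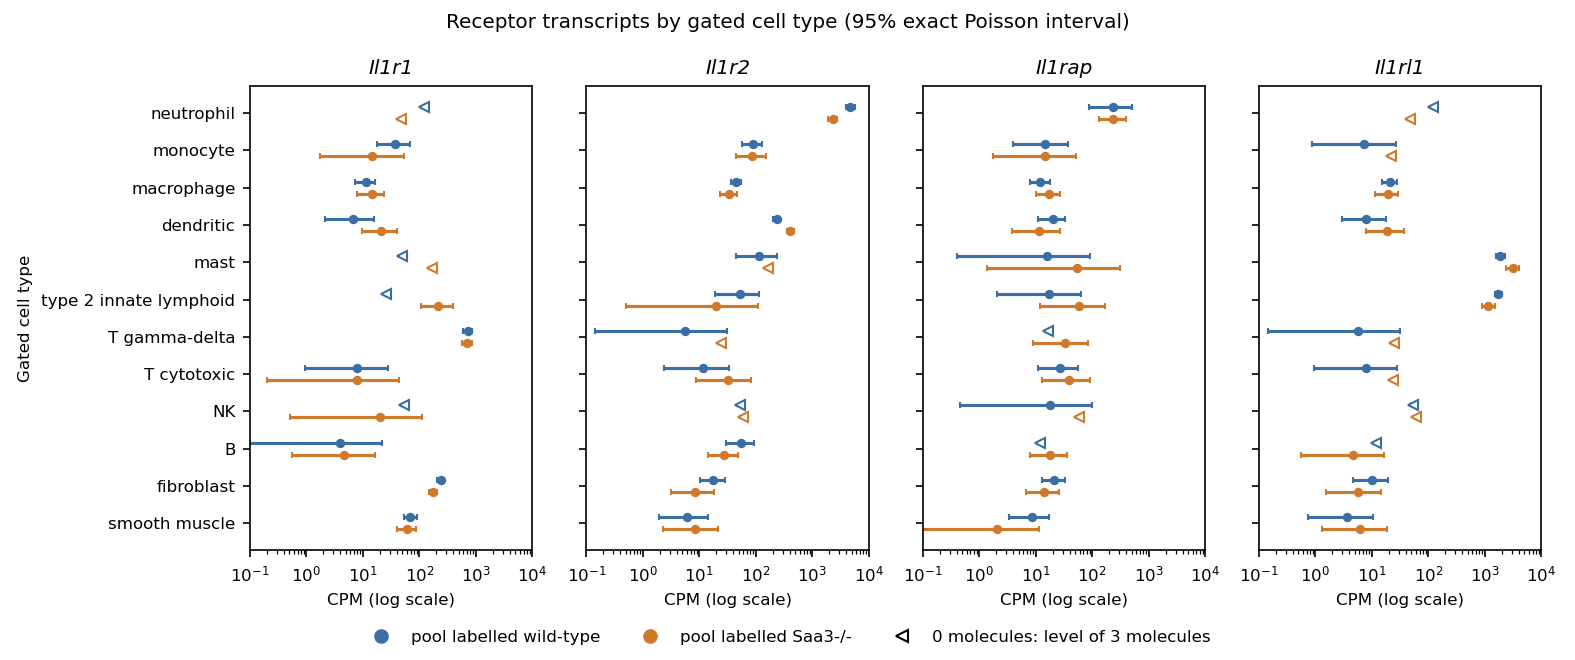
Level (CPM, log axis, exact 95% Poisson intervals) of Il1r1, Il1r2, Il1rap and Il1rl1 in gated types of each pool. Gamma-delta T-gated cells hold 717 and 702 CPM of Il1r1, and neutrophil-gated cells lead Il1r2.

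The pools were then compared within each gated type of at least 20 cells per pool, as a log2 ratio (above 0 where the level was higher in the pool labelled Saa3-/-), with 0.5 molecule added to each count. Genes with at least 20 molecules over both pools were considered, and a ratio of 2-fold or more either way was counted. Over all kept cells, 0 of 10 members passed that fold, beside 4.21% of 14102 genes. The largest differences there were Il1rl1 at -0.65 (95% interval -0.91 to -0.40), from 57.3 and 36.5 CPM, Il1rn at -0.61 (-0.79 to -0.42), from 102 and 67.1 CPM, and Il1r2 at 0.45 (0.29 to 0.62), from 80.5 and 110.3 CPM. The pools also differed in makeup, with 177 and 124 macrophage-gated, 27 and 12 type 2 innate lymphoid-gated and 9 and 16 neutrophil-gated cells, so that fewer cells of a type and less RNA per cell cannot be told apart in these whole-pool values.

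In macrophage-gated cells, all 10 members had enough molecules and 0 passed the fold, beside 5.11% of 9783 genes. Il1b differed by 0.04 (-0.24 to 0.30), Il1rn by 0.07 (-0.22 to 0.36) and Nlrp3 by -0.08 (-0.29 to 0.12). The interval of Casp1, at -0.42 (-0.86 to -0.02), ended just below 0, and that of Il1a, at 0.73 (-0.10 to 1.53), reached past the fold. With cells thinned to 2000 molecules Casp1 was -1.62, from a single random draw in which 30 of 173 and 6 of 124 cells held it. With each cell weighing the same Il1a was -0.27. For Il1b, Il1rn and Nlrp3 a 2-fold difference in either direction lay outside the counting interval. The pool labelled Saa3-/- was higher in 5 members and lower in 5, with a median of -0.02 beside 0.05 over all genes tested.

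Splitting the macrophage gate gave values on both sides. In resident-type cells 3 of 9 members passed the fold, beside 9.74% of genes: Il1rn at -1.20 (-2.26 to -0.38), from 90 and 12 molecules, Il18 at -1.58 (-5.00 to 0.15), from 23 and 2, and Il1rl1 at 1.32 (0.02 to 2.55), from 14 and 11. In lipid-laden cells 2 of 9 passed it, beside 6.39% of genes: Il1a at 1.36 (0.08 to 2.85), from 8 and 15 molecules, and Il1rl1 at -1.09 (-2.51 to 0.05), from 25 and 8. Il1b was 179 against 108 CPM in resident-type cells, a ratio of -0.72 (-1.30 to -0.20), and 128 against 173 CPM in lipid-laden cells, a ratio of 0.43 (0.04 to 0.83). The intervals of these 2 ratios did not overlap, and the difference between them has no replicate. Resident-type cells of the pool labelled Saa3-/- also had higher stress genes, with 11 of 12 higher, 3 of them past the fold, and a median ratio of 0.75 beside 0.10 over all genes tested; its part in the values of the members was not tested.

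Outside macrophages the members past the fold rested on few cells or on few molecules. In dendritic-gated cells 1 of 7 passed, beside 9.47% of genes: Il1rn, at 240.0 and 57.9 CPM, with a ratio of -2.03 (-2.72 to -1.44). Most of its molecules in the pool labelled wild-type came from the mature dendritic-gated cells, and with the 2 conventional types alone, a grouping added after the data were seen, the ratio was -0.32 (-1.09 to 0.38) and 0 of 6 members passed, beside 9.03%. Il1b in dendritic-gated cells was -0.73 (-1.04 to -0.43), and Il1r2 was 0.81 (0.50 to 1.1). The Il1b ratio was 0.06 and the Il1rn ratio -0.78 when cells were typed by Leiden clusters, and Il1b was -1.73 without the 5 cells highest in it. In T-gated cells 3 of 6 passed, beside 6.45% of genes: Il1b at -1.65 from 17 and 5 molecules, Nlrp3 at -1.02 from 15 and 7, and Il1r2 at -2.0 from 34 and 8. By Leiden clusters Nlrp3 was -0.37, and Casp1, just inside the fold here, was -1.41. A single regulatory T-gated cell held 9 of those 17 Il1b molecules, and without the regulatory type, again an added grouping, only 3 members kept 20 molecules and 0 of them passed, beside 6.58%.

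In fibroblast-gated cells 1 of 6 passed the fold, beside 7.21% of genes, Casp1 at -1.40 (-3.28 to -0.02) from 18 and 5 molecules. Those Casp1 molecules were spread over 13 and 5 cells. Il1r1 in the same cells was -0.43 (-0.77 to -0.11). In smooth muscle-gated cells 1 of 3 passed, beside 6.33%, Il1rn at -2.09 from 25 and 3 molecules, 23 of the 25 being in a single cell; under equal weights for all cells the ratio was -0.38. Monocyte-gated cells had 0 of 6 past the fold, beside 11.6%, with Il1rn at -0.91 (-1.70 to -0.23). In the pool labelled wild-type a single monocyte-gated cell held 42 of 80 Il1rn molecules. In the pool labelled Saa3-/-, 5 cells held all 21. Among thinned monocyte-gated cells, 3 of 33 and 2 of 25 held Il1rn. Il1b in monocyte-gated cells was -0.57 (-1.25 to 0.03), or -1.16 with a stricter gate and -1.70 by Leiden clusters. B-gated cells had 0 of 2, beside 9.63%, cytotoxic T-gated cells 0 of 1, beside 13.8%, and gamma-delta T-gated cells 0 of 1, beside 9.67%, the last being Il1r1 at -0.03 (-0.44 to 0.37). Over the 7 main types, 6 of 40 pairs of member and type passed the fold, beside 7.44% of the 51103 pairs of gene and type over all genes tested.

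**Figure D5:**
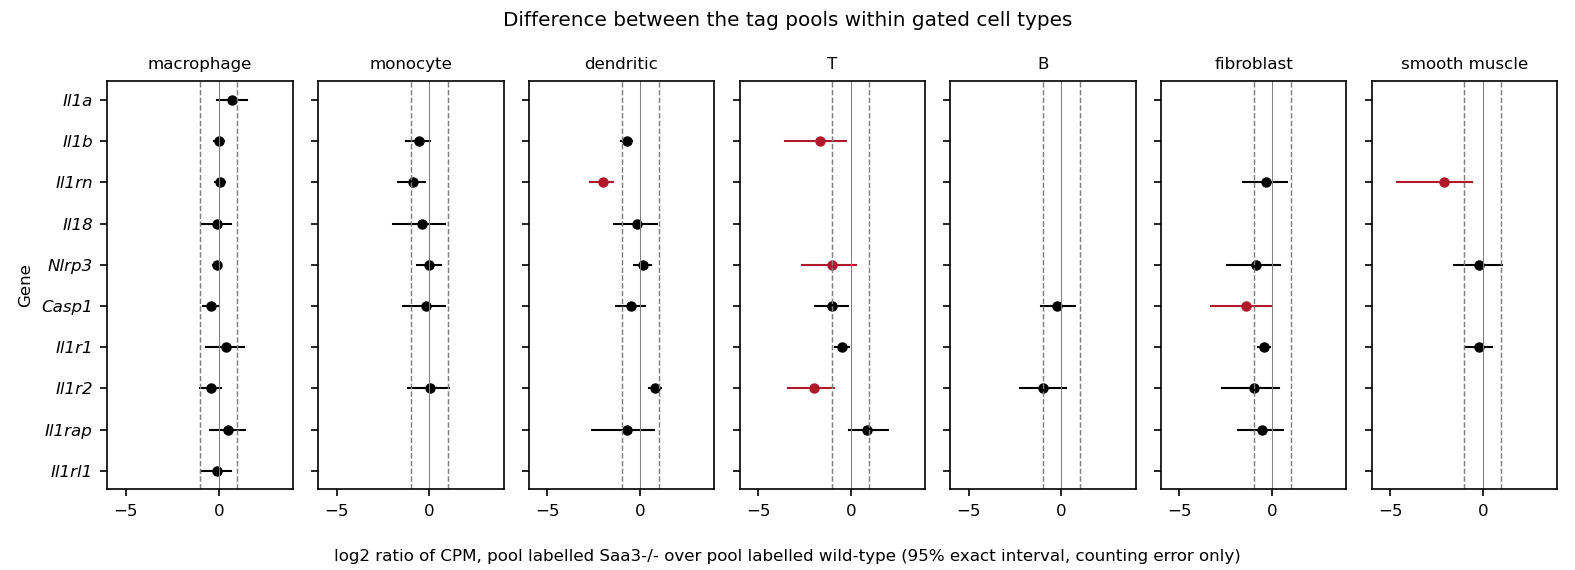
Log2 ratio between the pools (above 0 where the level was higher under the label Saa3-/-) for each member with at least 20 molecules, by gated type, with exact 95% intervals and lines at a 2-fold difference. In macrophage-gated cells all 10 members lie between the lines, and dendritic-gated Il1rn lies at -2.03.

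The rest of the pathway was read from fixed lists. Of the 17 listed genes of inflammasomes and release, 16 had enough molecules in macrophage-gated cells, 0 passed the fold, and 8 were higher and 8 lower, with a median of -0.01. Txnip, a thioredoxin-binding protein linked to NLRP3 activation, was 173 and 240.5 CPM, a ratio of 0.48 (0.24 to 0.71), and Nek7, a kinase that NLRP3 needs, 140.1 and 133 CPM. Casp4, the mouse caspase-11 gene that senses cytosolic lipopolysaccharide, was -0.56 (-0.90 to -0.23), and Gsdmd, the gene of the pore protein gasdermin D, was -0.54 (-1.09 to -0.04); both were picked out after their values were seen. Of 13 genes of receptor signalling, 12 were considered, 0 passed and the median was 0.03, or -0.04 when pools were scaled with TMM factors. Peli1, a ubiquitin ligase of the pathway, was 228 and 187 CPM and Tab2, an adaptor of the kinase TAK1, 214 and 201 CPM. Irak3, which encodes an inhibitory relative of the IRAK kinases and was picked out after its value was seen, was 78.2 and 39.8 CPM, a ratio of -0.96 (-1.50 to -0.48) just inside the fold.

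Genes known to respond to interleukin-1 had 11 of 14 members considered in macrophage-gated cells, 0 past the fold and 9 higher in the pool labelled Saa3-/-, with a median of 0.19 beside 0.05 over all genes tested. The kinds of macrophage went opposite ways: in resident-type cells 10 of 10 were higher, 4 past the fold, with a median of 0.74 beside 0.10, and in lipid-laden cells 8 of 10 were lower, 1 past the fold, with a median of -0.36 beside -0.01. Nfkbia, the gene of the NF-kB inhibitor alpha, was 799 and 826 CPM and Cxcl2, a neutrophil chemokine, 973 and 1126 CPM. The genes of dissociation stress moved the same way in macrophage-gated cells as a whole, with 10 of 12 higher and a median of 0.39. The 2 most abundant of the list over all kept cells were Fos, at 717 and 969 CPM in macrophage-gated cells, and Junb, at 840.4 and 837 CPM. In lipid-laden cells 7 of the 12 stress genes were higher, with a median of 0.06, beside the 11 of 12 of resident-type cells given above; their part in the values of the responsive genes was not tested. Of the 11 names listed as other ligands and soluble inhibitors, 4 had a column. Il18bp, which encodes the soluble interleukin-18 inhibitor, was 24.5 and 34.1 CPM in macrophage-gated cells, and 2 of these 4 genes had enough molecules there, with 0 past the fold. The receptor chain gene Il18r1 was 532 and 539 CPM in gamma-delta T-gated cells, beside 95.3 and 65.3 CPM of its partner Il18rap. This gate, with 717 and 702 CPM of Il1r1, thus also held the interleukin-18 receptor chain, at levels whose intervals overlapped between the pools.

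Genes most like each member in pattern were sought over 15 points (8 gated types, each pool with at least 20 cells a point) among 4705 genes with at least 500 molecules, on log2(CPM + 10). The points come from 1 library and share its depth, and neutrophil- and mast-gated cells are too few to enter. Il1b was closest to Shtn1 (Pearson r 0.989), Itgax (0.968) and Arpc1b (0.967). Nlrp3 was closest to Ptafr (0.984), Tyrobp (0.983) and Fcer1g (0.979), the last 2 being adaptor chains of myeloid receptors. Il1rn was closest to Psap (0.953), Ccl9 (0.95) and Clec12a (0.938), Il18 to Fgr (0.953), Nfam1 (0.95) and Gngt2 (0.949), and Casp1 to Tmed5 (0.957), Ncf4 (0.949) and Rgs19 (0.948). The receptors had looser matches. Il1r1 was closest to Cyb5a (0.864), Yipf3 (0.839) and Cnih1 (0.825), and Il1r2 to Syngr2 (0.907), Cd80 (0.887) and Ifitm1 (0.882). Il1rap was closest to Capn1 (0.873), Spred2 (0.773) and Nudt21 (0.722), and Il1rl1 to Hilpda (0.897), Sptssa (0.872) and Junb (0.846). Il1rl1 was high at a single point, type 2 innate lymphoid-gated cells of the pool labelled wild-type, at 1727 CPM. The next level in that pool was 20.8 CPM, in macrophage-gated cells, so its matches lean on that point. Il1a had too few molecules to enter.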

How the data were processed

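Live CD45+ arch cells were profiled with the BD Rhapsody whole transcriptome assay. Per the file headers, reads were processed with the BD Rhapsody WTA Analysis Pipeline 1.11.1 against GRCm38 with GENCODE M19, intronic reads included, and the deposited values are molecule counts per cell and gene. The submitters' processing notes also name R 4.3.1 and Seurat 4.3.0. The agent injected into both genotypes is not reported here. The members and the gene lists were chosen with earlier results of these data known.

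Cells with over 25% mitochondrial molecules were left out. The deposited calls name 2401 putative cells: 889 and 854 with a tag, 647 undetermined and 11 multiplets, the last 2 not used here. Each cell took the type with the highest mean marker z-score (molecules per 10000, log, values limited at 4), if that mean was at least 0.5, at least 2 markers were present and the next type was 0.25 lower. Molecules were summed per pool and type and given as CPM with exact Poisson intervals, shares with exact Clopper-Pearson intervals and ratios with exact conditional binomial intervals, all at 95%. Zero counts were read at a floor of 3 molecules. No doublet was removed beyond the tag multiplets. Named beside the members were Saa3, the 2 most abundant genes of each list, and the 3 genes closest in pattern; Casp4, Gsdmd and Irak3 were added after their values were seen. Simulated counts were tested, drawn with counting error only and no spread between cells. In macrophage-gated cells (9783 genes), 97.5% of 4-fold changes passed the fold of 2 and 2.36% of unchanged genes did. Molecules held by few cells are outside that setting, so 2.36% is not a rate of false calls in these data. Python 3.11.15, numpy 2.4.6, scipy 1.17.1, pandas 2.3.3 and scanpy 1.11.5 were used. Gene positions came from GENCODE M21. Of stretches of 50 bases in the members' transcripts, at most 0.126% were shared with another gene. The alternatives are given in the closing section.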

Additional observations from a re-analysis of the deposited data

Results flagged for a closer look

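Cells that passed no gate (118 and 158) entered no comparison by type, yet held molecules of the members above the limit that a count of 0 allows. Il1b had 119 molecules there in the pool labelled wild-type and 224 in the pool labelled Saa3-/-, where a single cell held 88. Il1rn had 115 and 98 molecules, Il18 had 6 and 15, and Il1a had 16 in the pool labelled Saa3-/-. Of the inflammasome genes, Nlrp3 had 118 and 120 molecules and Casp1 36 and 50. Among the receptors, Il1r1 had 60 and 62, Il1r2 had 88 and 178, Il1rap had 14 and 10 and Il1rl1 had 29 and 34. The Il1b level of these cells was 141 and 245 CPM, and their Il1b molecules per Il1rn molecule were 1.03 and 2.29. Of the 276 cells without a gate, 143 lay within 0.1 of a gate limit. In the 56 cells above the mitochondrial limit of the pool labelled wild-type, Il1r1 had 4 molecules. Which cell types these molecules came from was not tested.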

How the results depend on the processing

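No paired analysis was possible because each genotype label has 1 pool and no replicate number. The 0 of 10 members past the fold in macrophage-gated cells became 1 at a fold of 1.5 and 1 with every cell thinned to 2000 molecules. The share of all genes past the fold there, 5.11%, was 1.86% at a minimum of 50 molecules, 26.9% with no minimum, 17.9% at a fold of 1.5 and 1.06% at a fold of 3. The 6 pairs of member and type past the fold became 1 at a minimum of 50 molecules, 19 with no minimum, 16 at a fold of 1.5 and 3 with T-gated cells read without the regulatory type. With each cell weighing the same, Nlrp3 in smooth muscle-gated cells turned from -0.18 to 1.08. Il1b per Il1rn in macrophage-gated cells of the pool labelled wild-type was 1.38 with a stricter gate, 0.974 by Leiden clusters and 1.42 with equal cell weights, and in the pool labelled Saa3-/- 1.77 with equal weights. The lipid-laden values were 0.505 and 0.413 without the 5 highest cells and, in the pool labelled Saa3-/-, 1.26 with equal weights, and the resident-type value of that pool was 7.50 with a stricter gate. The stress median of 0.39 was 0.20 by Leiden clusters. At their own depth, 35.0% and 26.6% of macrophage-gated cells held Il1b, 70.1% and 62.1% held Nlrp3, 94.7% of gamma-delta T-gated cells under the wild-type label held Il1r1 and 6.15% of fibroblast-gated cells of the pool labelled Saa3-/- held Il1b. Thinned to 1000 molecules, Nlrp3 was in 24.9% of macrophage-gated cells under the wild-type label, and 52.6% and 34.5% of gamma-delta T-gated cells held Il1r1. Leaving out the 9 cells marked by the doublet caller Scrublet (0.543% of 1656) or using all deposited cells moved none of the 12 summary values so treated, but without those 9 cells 1 of 40 ratios, T-gated Nlrp3, lost the fold (-1.02 to -0.94). Of 34 ratios of member and type, 2 lost and 3 gained the fold by Leiden clusters, 5 of 36 gained it with the stricter gate, and of 40 with all deposited cells, 1 lost and 2 gained it. Without the 5 highest cells, 54 of 59 levels moved beyond their interval. Except where fewer molecules, genes or cells entered by construction, the cause was not tested. Depth limits Il1a, Il18 and Il1rap most, with 92, 167 and 209 molecules in all.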
